A study of Mus musculus with 4 samples.

Results

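Solute carrier (Slc) genes encode membrane transporters, and 136 genes of the 9546 in the deposited rlog table carried a symbol made of Slc and a number. The members were taken by symbol alone, and 135 were found in the count table under that symbol and 1, Slc66a2, under an older one. Of the 379 genes with such a symbol in the count table, 174 had 0 counts in every library. The members comprised 18 amino acid carriers, 10 carriers of glucose, lactate and other sugars, 19 metal carriers, 5 nucleoside and nucleobase carriers, 31 mitochondrial (Slc25) carriers, 15 nucleotide sugar carriers, 17 carriers of inorganic ions and 17 carriers of other solutes. The remaining 4 symbols (Slc4a1ap, Slc7a6os, Slc36a3os and Slc2a4rg-ps) name neighbouring, antisense or related genes that are not carriers themselves.

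Levels were compared between Il10-EGFP+ and Il10-EGFP- CD4+ T cells of the spleen, with 2 libraries (replicates 1 and 2) in each population. Every library came from Tg4 Nr4a3-Tocky IL-10 GFP mice, whose CD4+ T cells express a transgenic receptor of one specificity, for a peptide of myelin basic protein. The mice also carry a fluorescent Timer protein that reports Nr4a3 transcription after receptor signalling and EGFP as a reporter of Il10. All mice had received 4 mg/kg of [4Y]-MBP peptide subcutaneously 24 h before, and both populations were sorted from Timer+ cells, so that neither was an unstimulated control. The sources used here give no age, do not say whether mice were pooled for a library, and do not say whether libraries of the same number came from the same mouse, so that p-values measure the spread between these libraries. The paper states that cells for sorting came from biological replicate mice. The authors removed a further biological replicate pair as an outlier, and it was not analysed here.

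Activated T cells depend on transporters for nutrients. Glutamine and other neutral amino acids enter through Slc1a5 and through complexes of the Slc3a2 heavy chain with a light chain such as Slc7a5, glucose enters through Slc2a1 and Slc2a3, and lactate crosses the plasma membrane through Slc16a1 and Slc16a3. The Slc30 and Slc39 families move zinc out of and into the cytosol, and the Slc25 family exchanges nucleotides, phosphate and metabolites across the inner mitochondrial membrane.

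The libraries were shallow, with 644679 to 730330 counts (reads assigned to genes) each, of which the members took 0.634% to 0.739%. The mean count per library had a median of 12.5 over the members and of 21.25 over the 9608 genes tested, and 46 members had a mean under 10 counts. Il10 itself was at 0 counts in both Il10-EGFP- libraries and at 29 and 41 in the Il10-EGFP+ ones. All 10 T cell markers examined were detected in every library. B cell markers, led by immunoglobulin transcripts, summed to 137.1 and 220.3 CPM (counts scaled to library size with TMM factors) in Il10-EGFP- and to 541.9 and 580 CPM in Il10-EGFP+ T cells, with 4 of 8 tested (10 listed) called higher. Of the 10 listed, 7 were detected in every library, among them Cd79b, Ms4a1 and Pax5, while Cd79a had 0 counts in 3 of 4 libraries. Myeloid markers summed to 111.3 and 138.6 CPM against 394.5 and 200.5 CPM (the Il10-EGFP- libraries first, here and wherever values are set against each other below), with 2 of 9 tested (10 listed) called higher. CD8 or NK markers summed to 50.2 and 90.5 CPM against 95.1 and 111.1 CPM, with 1 of 5 tested (8 listed) called higher. T cell markers summed to 2692 and 2638 CPM against 3526 and 3305 CPM, with 1 of 10 called higher. The share of B cells, myeloid cells and CD8 or NK cells in any result below was not tested. In sorted bulk RNA fewer cells of a type and less RNA per cell cannot be told apart.

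Of the 136 members, 1 rose and 3 fell in Il10-EGFP+ T cells. These were Slc25a24, a mitochondrial carrier, and Slc19a1, Slc1a5 and Slc3a2, which bring folate and amino acids into the cell. A gene was called where the p of edgeR's quasi-likelihood test, adjusted by Benjamini-Hochberg over all genes tested, was under 0.05. Over those genes 226 (2.35%) were called higher and 167 (1.74%) lower, and the 4 called members were 2.94% of the members, against 4.09% of all genes called in either direction. The median log2 fold change (Il10-EGFP+ over Il10-EGFP-) was -0.09 over the members and 0 over all genes, with 61 members above 0 and 75 below. At an unadjusted p under 0.05, 7 members were higher and 13 lower, where 7.96% of all genes were higher and 7.49% lower. In 37 members both Il10-EGFP+ libraries lay below both Il10-EGFP- libraries, and in 24 both lay above, or 27.2% and 17.65% of the members. The corresponding shares over all genes were 22.3% lower and 22.3% higher.

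**Figure D1:**
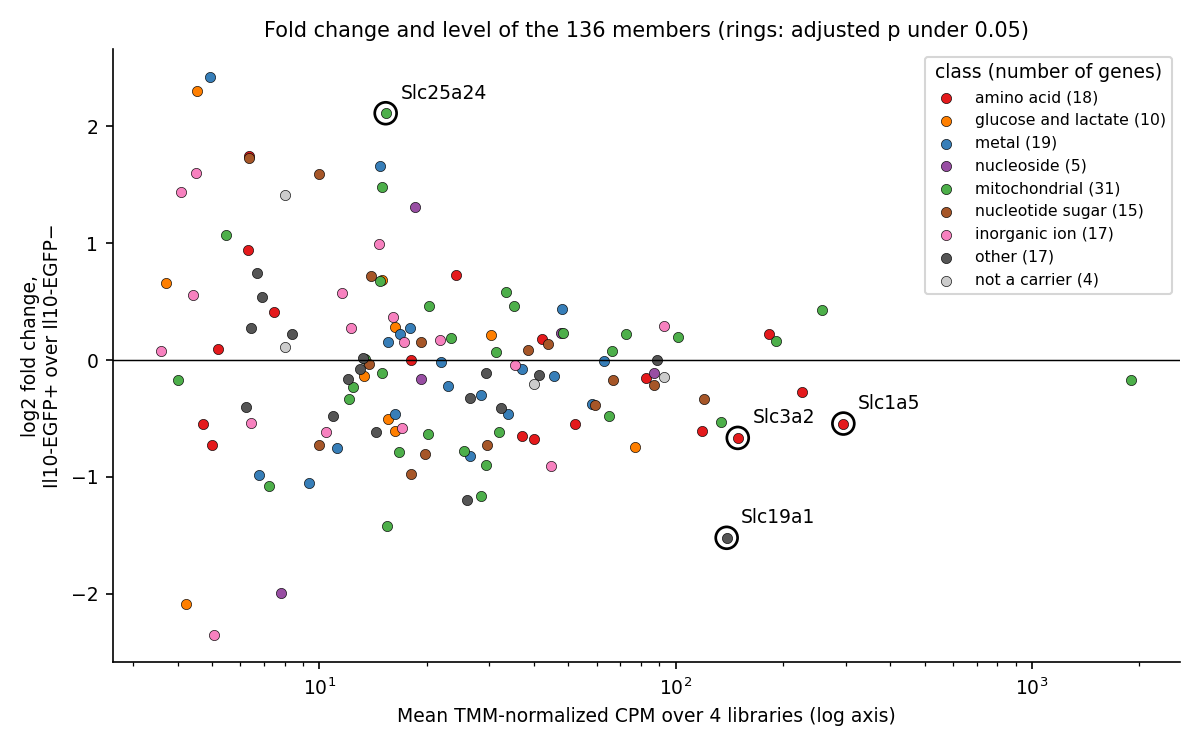
Log2 fold change of Il10-EGFP+ over Il10-EGFP- T cells (vertical axis) against the mean TMM-normalized CPM over 4 libraries (horizontal log axis) for each of the 136 members, coloured by class of carrier. Rings mark the 4 members with an adjusted p under 0.05, of which Slc19a1 lies at -1.52 and Slc25a24 at 2.11, and the scatter of fold changes widens towards the low levels on the left.

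Slc19a1, the reduced folate carrier, had the smallest p-value of the members. Its gene (ENSMUSG00000001436) lies at chr10:77032241-77061002 on the plus strand of GRCm38. Reads numbered 163 and 131 in Il10-EGFP- T cells, against 48 and 47 in Il10-EGFP+ T cells. In TMM-normalized CPM this was 206.2 ± 21.3 against 71.9 ± 5.84 (SD, n = 2 libraries each), or 65.2% lower in Il10-EGFP+ T cells. The populations were far apart relative to the spread within each, at a log2 fold change of -1.52 with a standard error (SE) of 0.21 (adjusted p = 8.1e-07, edgeR), and the call was made under each of the 12 alternative analyses. Among the other folate carriers, Slc25a32 carries folate into mitochondria and was named here after its values were seen. It had 23 and 31 counts against 13 and 14, with a log2 fold change of -0.90 that was not called (adjusted p = 0.254, edgeR). Slc46a1, the proton-coupled folate carrier, was no member, with 2 counts in 1 library and 0 in the others.

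Promoter sequences are shown for the called members for which RefSeq lists one in the table used here, Slc19a1, Slc3a2 and Slc25a24, and for Slc16a1, the member with the smallest p-value among those not called. Each covers the 250 bases before a RefSeq transcript start on GRCm38.p6, written 5′ to 3′ along the gene's strand. Capitals mark an E-box (CACGTG), the palindromic site that Myc and other E-box factors can bind.
Slc19a1, first start (chr10:77032489-77032738, plus strand): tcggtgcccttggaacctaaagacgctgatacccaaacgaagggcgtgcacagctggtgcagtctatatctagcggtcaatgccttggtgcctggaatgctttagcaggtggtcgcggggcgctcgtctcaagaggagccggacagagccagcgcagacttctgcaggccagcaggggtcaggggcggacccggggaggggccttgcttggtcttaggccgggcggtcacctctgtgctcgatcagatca
Slc19a1, second start (chr10:77032962-77033211, plus strand): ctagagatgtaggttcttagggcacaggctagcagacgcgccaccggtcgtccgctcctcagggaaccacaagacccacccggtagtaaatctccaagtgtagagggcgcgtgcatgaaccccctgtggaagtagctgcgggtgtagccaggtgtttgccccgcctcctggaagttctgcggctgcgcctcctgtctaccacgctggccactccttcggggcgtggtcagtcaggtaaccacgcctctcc
Slc3a2 (chr19:8713898-8714147, minus strand): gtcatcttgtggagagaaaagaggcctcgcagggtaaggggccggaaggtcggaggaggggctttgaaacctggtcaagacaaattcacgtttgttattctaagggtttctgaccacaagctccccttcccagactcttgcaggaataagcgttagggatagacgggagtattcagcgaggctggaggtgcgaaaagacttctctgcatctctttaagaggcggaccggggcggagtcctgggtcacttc
Slc25a24 (chr3:109122899-109123148, plus strand): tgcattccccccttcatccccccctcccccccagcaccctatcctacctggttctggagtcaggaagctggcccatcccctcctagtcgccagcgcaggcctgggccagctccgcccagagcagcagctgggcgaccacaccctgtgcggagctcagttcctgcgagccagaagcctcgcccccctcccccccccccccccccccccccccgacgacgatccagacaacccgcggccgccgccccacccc
Slc16a1 (chr3:104638414-104638663, plus strand): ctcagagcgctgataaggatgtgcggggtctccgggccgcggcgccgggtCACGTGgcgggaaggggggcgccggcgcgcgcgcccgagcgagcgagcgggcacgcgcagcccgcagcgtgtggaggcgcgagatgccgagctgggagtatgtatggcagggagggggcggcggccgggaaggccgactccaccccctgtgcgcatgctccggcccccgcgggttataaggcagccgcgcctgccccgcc
The windows were searched on both strands for CACGTG and for TGATGNAA, a form of the amino acid response element bound by Atf4. The windows of Slc19a1, Slc3a2 and Slc25a24 held neither, and that of Slc16a1 held CACGTG, starting 200 bases before the transcript start. The Slc3a2 window lies within the gene, whose annotated 5′ end is at chr19:8723369, and the bases before that end were not searched. CACGTG was in 19 of the 137 windows of 102 members (13.9%), in 8.72% of the windows of genes tested and in 6.02% of 32851 windows in all. TGATGNAA was in 2 of 137 windows of members (1.46%), in 1.88% of the windows of genes tested and in 3.45% of all.

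Amino acid carriers held 2 of the 3 members that fell. Of the 18, 2 were called lower (Slc1a5 and Slc3a2) and none higher, 16 did not pass the test, and the median log2 fold change was -0.21. Over all genes 1.74% were called lower. In 9 of the 18 both Il10-EGFP+ libraries lay below both Il10-EGFP- libraries and in 4 both lay above, where 22.3% of all genes did so in each direction. Summed over the class, the level was 1480 and 1407 CPM in Il10-EGFP- and 1155 and 1174 CPM in Il10-EGFP+ T cells, a ratio of 0.807, and Slc1a5 was the largest contributor.

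Slc1a5 (ENSMUSG00000001918; chr7:16781340-16798274, plus strand), which carries glutamine and other small neutral amino acids, had 265 and 234 counts against 161 and 157. Its level fell from 350.6 ± 12.9 to 240.8 ± 20.2 CPM (SD, n = 2 each), a log2 fold change of -0.54 (SE 0.16, adjusted p = 0.0313, edgeR). The populations did not overlap, but the adjusted p was 0.174 with DESeq2 and ran from 0.0652 to 0.275 in edgeR with any 1 of the 4 libraries left out. Slc3a2 (ENSMUSG00000010095; chr19:8706882-8723369, minus strand), the heavy chain that carries several Slc7 light chains to the cell surface, had 158 and 104 counts against 76 and 77 counts. Its level fell from 183.1 ± 44.4 to 115.8 ± 6.60 CPM (SD, n = 2 each), with a log2 fold change of -0.67 (SE 0.20, adjusted p = 0.0405, edgeR). The first Il10-EGFP- library stood highest. Without it the log2 fold change was -0.39 and the adjusted p 0.537 (edgeR), without the first or the second Il10-EGFP+ library the adjusted p was 0.0891 or 0.205, and with DESeq2 it was 0.313.

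The Slc3a2 light chains Slc7a5 and Slc7a6 were lower in CPM in both Il10-EGFP+ libraries without passing the test. Over all genes 22.3% lay lower without overlap. Slc7a5, the light chain for large neutral amino acids, had 55.6 and 68.6 CPM in Il10-EGFP- and 46.0 and 39.0 CPM in Il10-EGFP+ T cells (log2 fold change -0.55, 95% interval -1.15 to 0.06, adjusted p = 0.397, edgeR). Slc7a6, a light chain for cationic and neutral amino acids named here after its values were seen, had 29 and 41 counts against 14 and 27 (log2 fold change -0.68, adjusted p = 0.357, edgeR). The populations nearly met, at 39.36 CPM in the first Il10-EGFP- library and 38.95 CPM in the second Il10-EGFP+ library. The light chains Slc7a7, with 0 and 2 against 0 and 1 counts, and Slc7a11, with 0 counts in every library, were too low to be members.

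Slc38a1 and Slc38a2, sodium-coupled carriers of glutamine and other small neutral amino acids, were the next most abundant of the class with log2 fold changes of opposite sign, neither of them called. Slc38a1 had 232.1 and 264.1 CPM against 169.5 and 238.0 CPM, with overlapping populations (log2 fold change -0.28, adjusted p = 0.483, edgeR). Slc38a2 had 167.0 and 170.7 CPM against 196.5 and 197.6 CPM (log2 fold change 0.22, 95% interval -0.13 to 0.58, adjusted p = 0.616, edgeR). The taurine carrier Slc6a6 had 156.1 and 129.9 CPM in Il10-EGFP- and 84.0 and 103.9 CPM in Il10-EGFP+ T cells, without overlap, and missed the threshold (log2 fold change -0.60, adjusted p = 0.0992, edgeR). Slc7a1, a carrier of arginine and lysine, had 92.3 and 81.7 CPM against 76.1 and 80.8 CPM (log2 fold change -0.15, 95% interval -0.64 to 0.34). The remaining members of the class, among them Slc38a9, the lysosomal arginine sensor, had at most 35 counts in a library, and none was called.

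**Figure D2:**
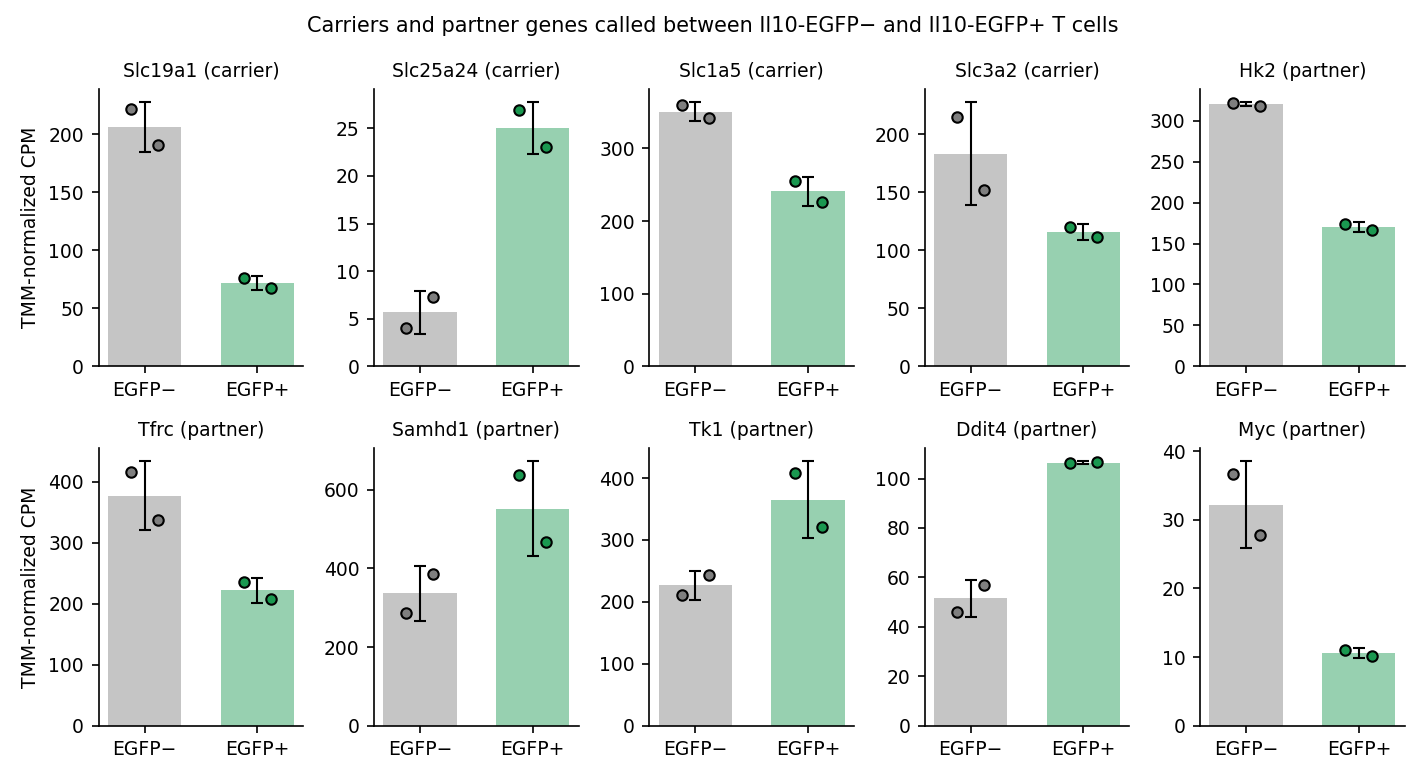
TMM-normalized CPM of the 4 called members (top row, first 4 panels) and of the 6 called partner genes in Il10-EGFP- (EGFP−, grey) and Il10-EGFP+ (EGFP+, green) T cells; bars are means, error bars SD, and points the 2 libraries of each population. In each panel the points of the populations do not overlap, as for Slc19a1 with 191.1 and 221.3 CPM against 67.8 and 76.1 CPM.

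None of the 10 carriers of glucose, lactate and other sugars was called in edgeR's quasi-likelihood test (0 in each direction) or by limma. At an unadjusted p under 0.05 in edgeR, 1 was lower and 0 higher, where 7.49% of all genes were lower and 7.96% higher. DESeq2 also called none, but it gave an adjusted p to only 35 of the 136 members. Slc2a1, Slc2a3 and Slc50a1 were among those without one. The median log2 fold change of the class was 0.04. Slc16a1, which carries lactate and pyruvate with a proton, was the most abundant, with 103.2 and 89.0 CPM in Il10-EGFP- and 61.8 and 53.4 CPM in Il10-EGFP+ T cells. The populations did not overlap and the log2 fold change was -0.74 (SE 0.25), but the adjusted p was 0.0883 (edgeR). Slc2a1, a facilitative glucose carrier, varied as much within as between populations, with 25 and 15 counts against 26 and 17. For its log2 fold change of 0.22 the 95% interval ran from -0.58 to 1.01, and it took the opposite sign when the second Il10-EGFP- or the first Il10-EGFP+ library was left out. Slc2a3, a facilitative glucose carrier of high affinity, had 14 and 12 counts against 8 and 9 (log2 fold change -0.50, 95% interval -1.58 to 0.57), and the sugar carrier Slc50a1 had 15 and 13 against 10 and 7 (log2 fold change -0.61, adjusted p = 0.661, edgeR). The lactate carrier Slc16a3 had 0 and 1 counts against 0 and 3 and was no member.

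The 19 metal carriers also gave no call in edgeR, DESeq2 or limma, but DESeq2 gave no adjusted p to some, among them Slc39a8 and Slc30a1. At an unadjusted p under 0.05 in edgeR, 2 were higher and 0 lower, where 7.96% of all genes were higher and 7.49% lower. The median log2 fold change of the class was -0.14, and 13 of 19 lay below 0, where 49.98% of all genes did. Slc39a8, which brings zinc, manganese and other divalent metals into the cytosol, came nearest, with 6 and 4 counts against 13 and 17. The ratio of counts, scaled to library size, was 3.22 (95% exact interval 1.53 to 7.39, counting error only), with a log2 fold change of 1.66 and an adjusted p of 0.0996 (edgeR). The summed B cell and myeloid markers given above were higher in the same 2 libraries, and their part in the values of Slc39a8 was not tested. Slc11a2, the carrier of ferrous iron, had 44.8 and 36.5 CPM against 58.6 and 51.9 CPM (log2 fold change 0.44, 95% interval -0.19 to 1.06, adjusted p = 0.559, edgeR). Slc31a1, the copper importer, had 52.9 and 78.8 CPM against 47.5 and 53.4 CPM, with an overlap (log2 fold change -0.37, adjusted p = 0.603, edgeR). The zinc importers Slc39a9 and Slc39a6 had log2 fold changes of -0.01 and -0.14, with 95% intervals from -0.56 to 0.54 and from -0.82 to 0.55. For Slc39a6, replicate 1 was above replicate 2 in both populations, at 59.7 and 35.0 CPM in Il10-EGFP- and 60.2 and 27.4 CPM in Il10-EGFP+ T cells. Slc30a1, the zinc exporter of the plasma membrane, had 9 and 11 counts against 5 and 6 (log2 fold change -0.75, 95% interval -2.05 to 0.55).

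The 5 nucleoside and nucleobase carriers gave no call either in edgeR, DESeq2 or limma, but DESeq2 gave Slc29a3 no adjusted p. At an unadjusted p under 0.05 in edgeR, 1 was higher and 1 lower, where 7.96% of all genes were higher and 7.49% lower. Slc29a1, the main equilibrative nucleoside carrier of the plasma membrane, was the most abundant. It had 92.3 and 87.5 CPM in Il10-EGFP- and 104.6 and 63.5 CPM in Il10-EGFP+ T cells, so that the Il10-EGFP- values lay between the others (log2 fold change -0.11, 95% interval -0.60 to 0.38). The purine nucleobase carrier Slc43a3 had 26 and 36 counts against 34 and 34 (log2 fold change 0.23, 95% interval -0.40 to 0.86). The lysosomal nucleoside carrier Slc29a3 had 16 and 13 counts against 14 and 10 (log2 fold change -0.16, 95% interval -1.13 to 0.81). The other two members of the class, named here after their values were seen, had few counts and lay apart in opposite directions. Slc28a2, a sodium-coupled nucleoside carrier, had 8 and 7 counts against 17 and 18 (log2 fold change 1.31, adjusted p = 0.150, edgeR), and 44.5% of the stretches of 50 bases at its transcript ends were shared with Gm14085, which had 3 counts in all. Slc29a2, an equilibrative carrier, had 12 and 6 counts against 3 and 1 (log2 fold change -1.99, adjusted p = 0.232, edgeR).

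Mitochondrial carriers formed the largest class and held the member that rose. Of 31, 1 was called higher and none lower, 16 lay above 0 and 15 below, and the median log2 fold change was 0.01. Over all genes 2.35% were called higher and 1.74% lower. At an unadjusted p under 0.05, 3 of the class were higher and 4 lower, where 7.96% of all genes were higher and 7.49% lower. Slc25a24 (ENSMUSG00000040322; chr3:109123149-109168457, plus strand), a calcium-regulated carrier that exchanges ATP-Mg for phosphate, had 3 and 5 counts against 17 and 16. The level rose from 5.68 ± 2.28 to 25.0 ± 2.73 CPM (SD, n = 2 each), a log2 fold change of 2.11 (SE 0.60, adjusted p = 0.0287, edgeR). The ratio of counts, scaled to library size, was 4.43 with an exact 95% interval from 2.01 to 11.1, which covers counting error only. The adjusted p ran from 0.0549 to 0.224 in edgeR with any 1 library left out, DESeq2 gave this gene no adjusted p, and the difference in rlog, which pulls low counts together, was 0.19. The part of the B cell and myeloid transcripts in its rise was not tested.

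Slc25a3, the phosphate carrier, was by far the most abundant member on the CPM scale, where reads come from the 3′ end of a transcript and are not divided by its length. It took 26.4% to 28.5% of the CPM of all members in each library. It had 1922 and 2107 CPM in Il10-EGFP- and 1805 and 1770 CPM in Il10-EGFP+ T cells, with a log2 fold change of -0.17 and a 95% interval from -0.41 to 0.06. The ADP/ATP carriers Slc25a4 and Slc25a5 followed. Slc25a4 had 215.8 and 223.2 CPM against 258.3 and 330.4 CPM, without overlap (log2 fold change 0.43, SE 0.16, adjusted p = 0.147, edgeR). Slc25a5 had 206.3 and 153.2 CPM against 217.1 and 187.5 CPM, with an overlap (log2 fold change 0.16, adjusted p = 0.759, edgeR), and 18.3% of its end sequence was shared with pseudogenes, the leading of which had 0 counts.

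Other mitochondrial carriers were not called. Slc25a39, which imports glutathione, had 138.5 and 179.5 CPM against 110.9 and 108.2 CPM (log2 fold change -0.53, SE 0.20, adjusted p = 0.136, edgeR). Its relative Slc25a40, named here after its values were seen, had 6 and 13 counts against 9 and 5, with an overlap (log2 fold change -0.33, adjusted p = 0.882, edgeR). The mitoferrins Slc25a37 and Slc25a28, which import iron, were also named after their values were seen. Slc25a37 had 32 and 24 counts against 16 and 7 (log2 fold change -1.16, adjusted p = 0.114, edgeR), and was called when the first Il10-EGFP+ library was left out. Slc25a28 had 16 and 16 counts against 6 and 5 (log2 fold change -1.42, adjusted p = 0.167, edgeR). Erythroid markers, of which 4 of 7 were detected in every library and Epb42 was at 0 counts in each, summed to 160.2 and 140.1 CPM against 272.5 and 206.3 CPM, and their part in these values was not tested.

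**Figure D3:**
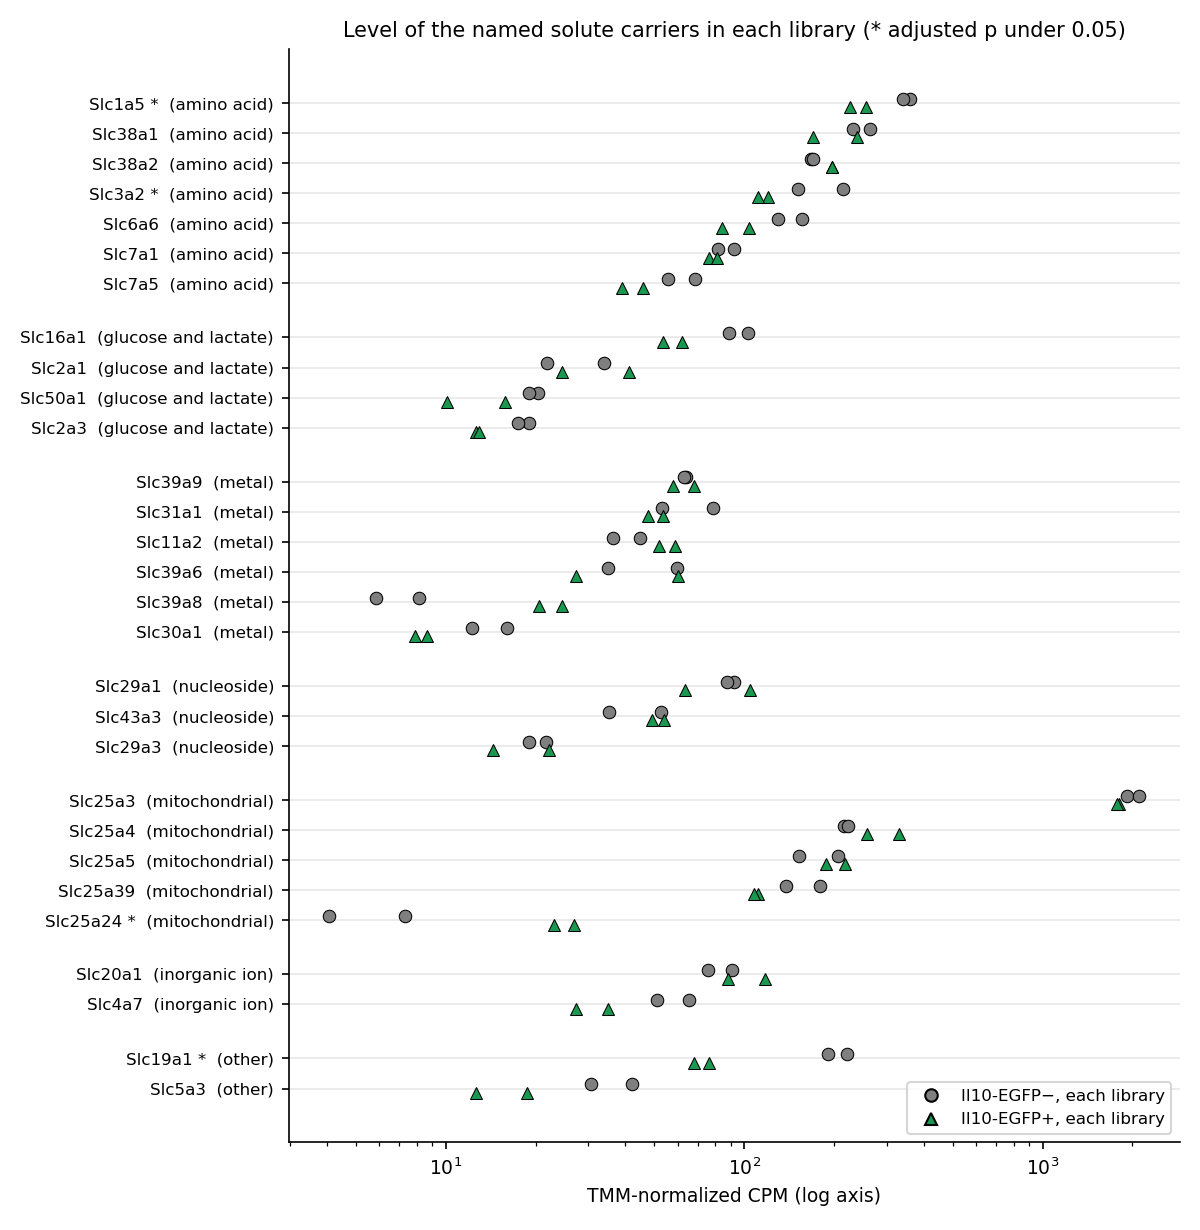
TMM-normalized CPM (log axis) of the named members in each Il10-EGFP- (grey circles) and Il10-EGFP+ (green triangles) library, by class of carrier, with an asterisk at the 4 members with an adjusted p under 0.05. Slc25a3 stands alone at 1770 to 2107 CPM, Slc25a24, Slc39a8 and Slc19a1 lie furthest apart between populations among the genes drawn, and for Slc2a1, Slc39a6 and Slc29a1 the populations overlap.

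Outside these 5 classes, Slc19a1 was the only carrier called. The 15 nucleotide sugar carriers of the Golgi and endoplasmic reticulum (Slc35a to Slc35e) had a median log2 fold change of -0.17 and a summed level of 591.8 and 593.8 CPM against 529.2 and 509.3 CPM. The 17 carriers of inorganic ions had a median of 0.17 and a summed level of 329.8 and 307.9 CPM against 361.3 and 290 CPM. Slc20a1, which takes up phosphate with sodium, had 90.9 and 75.9 CPM against 117.3 and 88.0 CPM, with an overlap (log2 fold change 0.29, adjusted p = 0.624, edgeR). Slc4a7, a sodium bicarbonate carrier, had 48 and 35 counts against 22 and 19 (log2 fold change -0.91, SE 0.33, adjusted p = 0.112, edgeR). In the 17 carriers of other solutes the median was -0.13. Among them Slc5a3, the sodium-coupled myo-inositol carrier, had 31 and 21 counts against 8 and 13 (log2 fold change -1.20, SE 0.43, adjusted p = 0.110, edgeR). Exons of Slc5a3 share 159 bases with Mrps6 on the same strand, but 0 of 502 stretches of 50 bases at its transcript ends were shared with another gene. An effect of the overlap on its counts was not tested.

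Genes that work with the carriers were listed by class, and 65 of 75 were tested, of which 3 rose and 3 fell, with a median log2 fold change of 0.02. Over all genes tested 2.35% were called higher and 1.74% lower. Of 12 amino acid sensing and response genes, Myc, a transcription factor that drives genes of growth and nutrient uptake, had 27 and 19 counts against 7 and 7 (log2 fold change -1.59, SE 0.49, adjusted p = 0.0465, edgeR). Ddit4, an inhibitor of mTORC1, had 34 and 39 counts against 67 and 74 (log2 fold change 1.05, SE 0.25, adjusted p = 0.00766, edgeR). The other 10, with the stress response factor Atf4 at 707.2 and 547.1 CPM against 587.9 and 454.4 CPM, did not pass the test.

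Of 14 glucose and lactate partners, Hk2, the inducible hexokinase that traps glucose in the cell, fell from 319.9 ± 2.56 to 170.1 ± 5.93 CPM (SD, n = 2 each; log2 fold change -0.91, SE 0.17, adjusted p = 0.000214, edgeR). Bsg and Emb, chaperones of the lactate carriers, were not called, with log2 fold changes of 0.12 and -0.17. Of 15 metal partners, Tfrc, the transferrin receptor through which T cells take up iron, had 416.7 and 337 CPM against 236.1 and 207.7 CPM (log2 fold change -0.77, SE 0.16, adjusted p = 0.00123, edgeR). Thus Tfrc was called lower while the iron carrier Slc11a2 was not called, and the difference between them was not tested.

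Of 9 nucleoside partners, 2 rose and none fell, where 2.35% of all genes tested were called higher and 1.74% lower. Tk1, which phosphorylates thymidine, had 210.4 and 243.7 CPM against 408.8 and 321.7 CPM (log2 fold change 0.68, SE 0.16, adjusted p = 0.00541, edgeR). Samhd1, which breaks down deoxynucleoside triphosphates, had 287.8 and 386.6 CPM against 637 and 467.4 CPM (log2 fold change 0.71, SE 0.15, adjusted p = 0.00213, edgeR). None of 15 mitochondrial partners, among them the voltage-dependent anion channels and the pyruvate carrier subunits Mpc1 and Mpc2, was called by edgeR. At an unadjusted p under 0.05, 2 were higher and 2 lower, where 7.96% of all genes were higher and 7.49% lower.

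**Figure D4:**
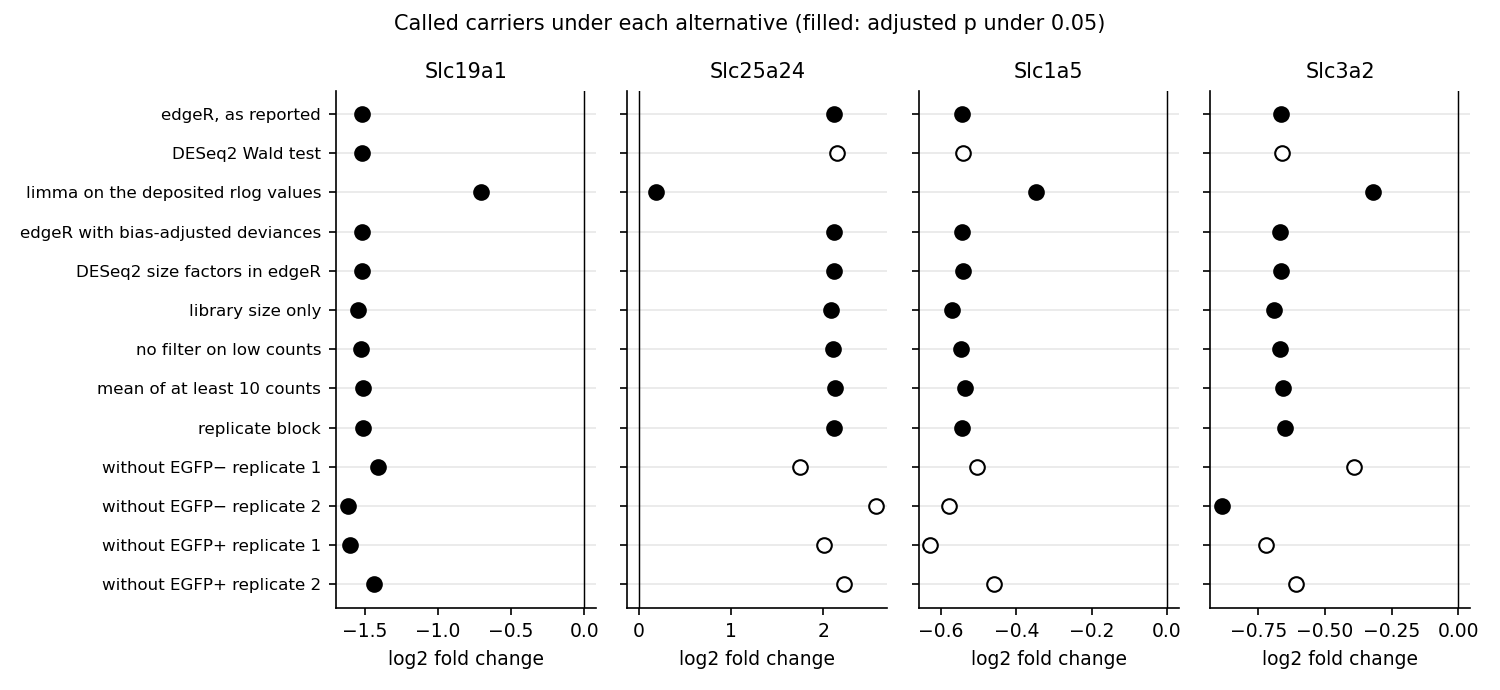
Log2 fold change of the 4 called members (one panel each, separate horizontal scales) in the reported edgeR fit and 12 alternatives; filled points had an adjusted p under 0.05, and open points a larger one or, for Slc25a24 with DESeq2, none. Slc19a1 is filled in every line, and the points from limma, which was run on rlog values, lie nearer to 0, as for Slc19a1 at -0.71.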

How the data were processed

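Messenger RNA of 4 libraries was measured by QuantSeq FWD 3′ sequencing from 5 ng of RNA. For the RNA extraction, the labels name the PureLink RNA Micro kit and the methods the Arcturus Picopure kit. The authors aligned reads to GRCm38 (STAR 2.5.2a and HTSeq 0.6.0, per the submitters' processing notes) and deposited raw read counts per Ensembl gene. They also deposited rlog values on a log2 scale, made from those counts with DESeq2. Molecular identifiers were used, but whether the counts were collapsed by them, the strand option and the annotation release are not given in the sources used here. Every per-sample column was used.

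The populations were compared with edgeR 4.0.16 (R 4.3.3; TMM factors, glmQLFit and glmQLFTest at their defaults) over every gene that reached 10 counts in the sum of the 4 libraries. Benjamini-Hochberg adjusted p-values under 0.05 were called, and standard errors were derived from the F statistic. CPM values are TMM-normalized and ratios of counts have exact 95% intervals. DESeq2 1.42.0 and limma 3.58.1 on the rlog values served as alternatives. Members went into classes by symbol. The named genes are the called members, the 3 most abundant of each of the 5 classes, a preset list of transporters known in activated T cells, the 5 members of smallest p not called, and called partner genes; others are marked in the text. The members, classes and lists were chosen with earlier results of these data known. Coordinates came from GENCODE M21 on GRCm38, and the last 300 bases of transcripts were compared with other genes in stretches of 50 bases. The fits were tested on simulated data.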

Additional observations from a re-analysis of the deposited data

How the results depend on the processing

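The 4 members called by edgeR were the same 4 under limma on the rlog values, bias-adjusted deviances, DESeq2 size factors, library size only, no filter on low counts, a mean of at least 10 counts, and the replicate block. DESeq2's Wald test called 1 member (Slc19a1), 0 amino acid and 0 mitochondrial carriers. It gave an adjusted p to only 35 of the 136 members. With each library left out in turn, 1 to 2 members, 0 to 1 amino acid carriers and 0 to 1 mitochondrial carriers were called, and Slc19a1 was called each time. The second call was Slc3a2 without Il10-EGFP- replicate 2 and Slc25a37 without Il10-EGFP+ replicate 1. In these fits the lone library of a population was assumed to vary like the others. Carriers of glucose and lactate, metals and nucleosides had 0 calls under every alternative run.

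Over all genes, edgeR called 393, DESeq2 115, the replicate block 560, and the fits without a library 201 to 264. The difference between replicates 1 and 2 was hardly correlated between the populations (r = 0.02 over 6781 genes). At this depth counting error could hide a shared deviation, so this value cannot decide whether libraries of the same number are paired. The reported fit treated them as unpaired, and the replicate block kept 4 calls among the members.

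Of the named members, 7 changed sign under an alternative, each of them uncalled and each only where a library was left out. Over all 136 members, 75 lay below 0 in edgeR, 74 with DESeq2 or its size factors, 78 with library size only and 76 with no filter. With a library left out, the log2 fold change ran from -0.79 to 0.34 for Slc39a6, -0.13 to 0.11 for Slc39a9, -0.031 to 0.54 for Slc43a3, -0.028 to 0.40 for Slc25a5, -0.19 to 0.57 for Slc2a1, -0.50 to 0.22 for Slc29a1 and -0.49 to 0.12 for Slc29a3. At this depth 10 members had under 5 counts in a population.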
